A study of Danio rerio with 15 samples.

Results

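The genes described here are those of DNA replication and DNA repair in the liver of male zebrafish. They were chosen by gene symbol: the origin recognition and MCM genes, the replicative polymerases, the sliding clamp and its loader, the single-strand binding proteins, ribonucleotide reductase, and the excision, mismatch, crosslink and double-strand break repair genes whose symbols begin with a fixed set of letters. The rule found 80 of the 8793 genes with a symbol on the array, through 89 probe sets, and each gene is read from the probe set with the highest mean. A few, namely *parp12b*, *rad54l2*, *parp4*, *parp16*, *ercc6l*, *rad21a* and *rad21l1*, share letters with repair genes but are not core replication or repair factors, and they are described last. They are counted among the 80.

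Expression was read on 15 GeneChip Zebrafish Genome Arrays, 3 for each of 5 groups, and each array held liver RNA of a pair of males, so that a group held 6 males of the AB background. All fish were 16 weeks old when the liver was taken, and the irradiated groups had received whole-body gamma rays from a caesium source. The embryo 0.1 Gy and embryo 1.0 Gy groups were irradiated at 24 hours post fertilization and were the long-term response groups, the adult 0.1 Gy and adult 1.0 Gy groups were irradiated 4 hours before analysis and were the acute response groups, and the controls were not irradiated. The adult-irradiated males came from the same cohort as the controls, the embryos of 3 breeding pairs were pooled, and a sham exposure of the controls is not described. The embryo-irradiated groups were set apart at 24 hours post fertilization and grown as groups of their own. Rearing group and irradiation therefore cannot be told apart in comparisons of these groups with the others or with each other. Age at exposure and time since exposure are linked, as the study states, and cannot be told apart either. The long-term and acute comparisons use the same 3 control arrays, so a high or low control moves both of them.

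In a dividing cell the origin recognition complex marks the start sites of replication and loads the MCM ring, the helicase that opens the double helix. RPA coats the single strands, the RFC complex loads the PCNA ring, and PCNA tethers the polymerases and many repair enzymes. Most hepatocytes of an adult liver do not divide, but they need the excision pathways, which cut out damaged bases or nucleotides and fill the gap with the same clamp, loader and ligase, and the pathways that rejoin the double-strand breaks made by ionizing radiation.

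Values are log2 expression as deposited, and array medians lay between 5.018 and 5.14. A gene passed a comparison only if limma gave an adjusted p (Benjamini-Hochberg) under 0.05 for the comparison and also for the F-test over the 5 groups, among the 8634 probe sets whose interquartile range reached 0.2. Of the 80 members, 43 reached this range and were tested and 37 did not. Of the arrays, 4 carry a source name and a description that swap control and adult 0.1 Gy (replicates 2 and 3 of the controls, replicates 1 and 2 of the adult 0.1 Gy group). Their title, treatment and timing give the groups used here, and the outcome without these arrays is given below. The log2 of the summed intensities of 12 hepatocyte markers, a sum that the brightest of them carry, was 17.58 to 17.63 in embryo-irradiated, 17.61 to 17.71 in adult-irradiated and 17.60 to 17.65 in control livers. Of the 5 of these markers that were tested, *cyp2ad2* fell in the acute response (-0.86) and was higher in embryo-irradiated than in adult-irradiated livers (0.77), *fga* was lower in that comparison (-0.38), and 0 passed in the long-term response by limma (2 of the 12 at an unadjusted p under 0.05).

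Against control, 5 members passed in the long-term response (6.25% of 80, where 13.7% of all 8793 genes passed, genes below the range minimum counting as not passed here and below), 4 higher (4.66% of all genes were higher) and 1 lower (9.02%). In the acute response 12 passed (15% of 80, against 26.5% of all genes), 4 higher (9.19% of all genes) and 8 lower (17.3%), and with array medians subtracted 3 were higher and 10 lower. Between the embryo-irradiated and the adult-irradiated groups 16 members passed (20% of 80, against 22.5% of all genes), and 15 of these 16 were higher in the embryo-irradiated livers. The members' share was lower than that of all genes in the long-term and acute comparisons and near it between the irradiation times. Among tested genes only, it was 11.6% of 43 members against 22% of 5468 genes in the long-term response, 27.9% against 42.7% in the acute response, and 37.2% against 36.1% between the irradiation times. The share that was higher in embryo-irradiated than in adult-irradiated livers (15 of 80) stood beside 14.4% of all genes in that direction, and the share that was lower (1 of 80) beside 8.11%. The median log2 difference of the 80 members was 0.11 in the long-term comparison, where that of all genes was 0.05, 0.03 in the acute comparison, where it was 0.05, and 0.07 between the irradiation times, where it was -0.01.

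The 7 genes described last are cohesin genes and genes that share only letters with repair genes. A count without them, chosen after seeing the data, had 4 of 73 members passing in the long-term response (3 higher, 1 lower). In the acute response 10 passed (3 higher, 7 lower), and these shares were 5.48% and 13.7%, against 13.7% and 26.5% of all genes. Between the irradiation times 14 passed (19.2%, against 22.5% of all genes), all higher in embryo-irradiated livers, where 14.4% of all genes were higher. The only member lower in that comparison was *rad54l2*, one of the 7, so leaving out the 7 left no lower member. The counts also moved with the weight given to single arrays: with limma's array weights 18 members passed in the long-term response (22.5% of 80, against 29.1% of all genes under the same weights), 24 in the acute response (30%, against 37.7%) and 21 between the irradiation times (26.2%, against 29.3%).

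**Figure D1:**
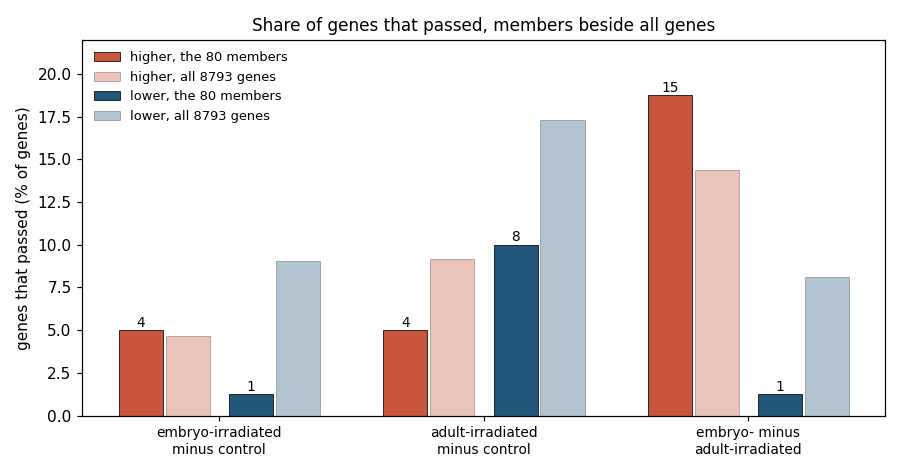
Share of genes (%, vertical axis) that passed limma's test in each direction in 3 comparisons. Full bars are the 80 replication and repair genes with their number above, and pale bars are all 8793 genes. Of the members, 15 were higher in embryo-irradiated than in adult-irradiated livers and 1 was lower.

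Before any adjustment, 20 of the 80 members had p under 0.05 in the long-term comparison, 18 of them higher than control, and 31 had it in the acute comparison, 16 higher and 15 lower. The share of all genes at this level was not counted, here or for the other unadjusted counts in the text. Of the 80 members, 61 long-term and 46 acute differences were above 0, beside 5175 and 4932 of all 8793 genes. The 37 members that were not tested had differences of -0.11 to 0.36 in the long-term, -0.27 to 0.30 in the acute and -0.20 to 0.34 in the irradiation time comparison. All 6 embryo-irradiated arrays lay above all controls for 7 members (8.75% of 80) and below them for 0, against 15.6% of all genes with no overlap (7.64% higher and 7.97% lower), and in the acute comparison 21 members did not overlap, 11 higher and 10 lower (26.2%, against 33.5% of all genes, 16.2% higher and 17.4% lower).

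**Figure D2:**
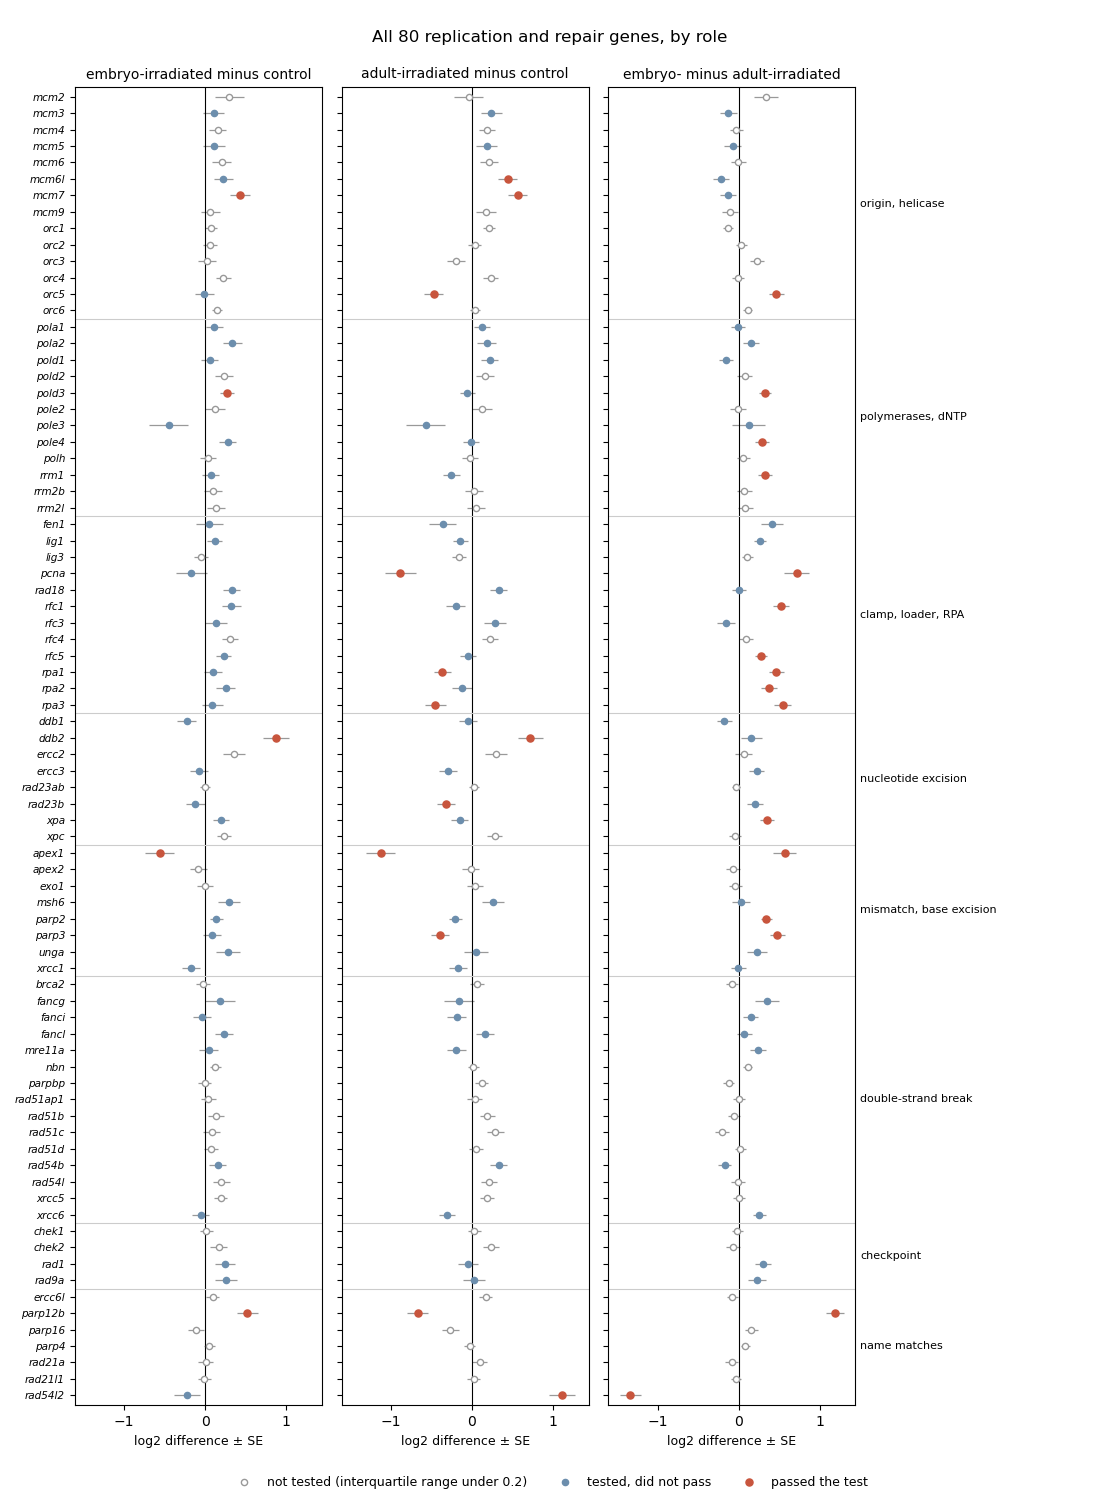
Log2 difference with its standard error for all 80 members, by role from top to bottom, for embryo-irradiated minus control, adult-irradiated minus control, and embryo-irradiated minus adult-irradiated livers. Red points passed limma's test, blue points did not, and open points had an interquartile range under 0.2 and were not tested. In the clamp, loader and RPA block 6 red points lie right of 0 in the last panel, and the double-strand break and checkpoint blocks hold no red point.

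Of the 14 origin and helicase genes, *mcm7* passed in both responses. Its values were 6.88, 6.69 and 6.71 in embryo 0.1 Gy, 6.71, 6.85 and 6.58 in embryo 1.0 Gy, 6.97, 6.95 and 6.54 in adult 0.1 Gy, 6.99, 6.85 and 6.95 in adult 1.0 Gy, and 6.51, 6.28 and 6.14 in control livers. All 12 irradiated arrays lay above all 3 controls, the adult 0.1 Gy array of 6.54 by little. *mcm7*, a subunit of the MCM ring, rose by 0.43 ± 0.12 (SE; 1.35-fold, adjusted p = 0.018) in the long-term response and by 0.56 ± 0.12 (1.48-fold, adjusted p = 0.0015) in the acute response. Both calls were lost without control replicate 2 (differences of 0.41 and 0.55) or control replicate 3 (0.35 and 0.48). The acute call was lost through the F-test only, since limma's adjusted p of that comparison stayed at or under 0.014.

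*mcm6l*, a paralogue of *mcm6*, had values of 4.86, 5.00 and 4.86 in embryo 0.1 Gy, 4.98, 4.94 and 5.14 in embryo 1.0 Gy, 5.62, 5.02 and 5.15 in adult 0.1 Gy, 4.94, 5.14 and 5.18 in adult 1.0 Gy, and 4.66, 4.84 and 4.72 in control livers. One adult 0.1 Gy array stood well above the others, and every irradiated array was above every control. The acute rise was 0.44 ± 0.12 (adjusted p = 0.0094), and 13 of the 15 fits that left out 1 array lost the call, since the F-test then missed its threshold, with the difference between 0.35 and 0.50. A second *mcm6l* probe set, under the range minimum, gave an acute difference of 0.17 ± 0.10. Whether the *mcm6* and *mcm6l* probe sets read each other's transcript was not tested.

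*orc5*, a subunit of the origin recognition complex, went the other way after irradiation of adults. It had 5.34, 5.33 and 5.25 in embryo 0.1 Gy, 5.20, 5.37 and 5.09 in embryo 1.0 Gy, 5.01, 5.08 and 4.77 in adult 0.1 Gy, 4.77, 4.46 and 4.71 in adult 1.0 Gy, and 5.09, 5.23 and 5.50 in control livers. The adult-irradiated arrays were below every other array, while the embryo-irradiated and control arrays overlapped. *orc5* fell by 0.47 in the acute response (SE 0.11, adjusted p = 0.0040), was 0.46 ± 0.09 higher in embryo-irradiated than in adult-irradiated livers (adjusted p = 0.0016), and differed by -0.01 ± 0.11 in the long-term response.

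None of the other MCM genes passed in these comparisons. *mcm2* had 5.89, 5.28 and 5.56 in embryo 0.1 Gy, 6.02, 6.45 and 5.43 in embryo 1.0 Gy, 5.54, 5.19 and 5.46 in adult 0.1 Gy, 5.38, 5.55 and 5.49 in adult 1.0 Gy, and 5.57, 5.49 and 5.36 in control livers. The embryo 1.0 Gy replicate 2 value of 6.45 was the highest, and the groups overlapped. *mcm5* had 4.79, 4.31 and 4.58 in embryo 0.1 Gy, 4.89, 5.12 and 4.50 in embryo 1.0 Gy, 4.89, 4.91 and 4.68 in adult 0.1 Gy, 4.78, 4.68 and 4.70 in adult 1.0 Gy, and 4.54, 4.63 and 4.59 in control livers. The adult-irradiated arrays lay above the controls by a small margin, with an acute difference of 0.18 ± 0.13 (adjusted p = 0.24).

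*mcm3* had 5.53, 5.49 and 5.66 in embryo 0.1 Gy, 5.35, 5.60 and 5.76 in embryo 1.0 Gy, 5.75, 5.47 and 5.59 in adult 0.1 Gy, 5.74, 5.78 and 5.84 in adult 1.0 Gy, and 5.82, 5.28 and 5.28 in control livers. Control replicate 1 was close to the highest irradiated arrays and the other controls were lower than all of them, so the groups overlapped through 1 array. *mcm4* had 5.37, 5.19 and 5.48 in embryo 0.1 Gy, 5.39, 5.70 and 5.36 in embryo 1.0 Gy, 5.53, 5.37 and 5.38 in adult 0.1 Gy, 5.63, 5.37 and 5.38 in adult 1.0 Gy, and 5.41, 5.17 and 5.21 in control livers, and *mcm6* had 4.67, 4.79 and 4.73 in embryo 0.1 Gy, 4.48, 4.93 and 4.91 in embryo 1.0 Gy, 4.92, 4.58 and 4.75 in adult 0.1 Gy, 4.81, 4.77 and 4.70 in adult 1.0 Gy, and 4.77, 4.50 and 4.39 in control livers. In both genes the controls overlapped the irradiated arrays, and neither reached the range needed for the test. Over the 14 genes of this role, 13 long-term and 11 acute differences were above 0, with medians of 0.13 and 0.18. Of all 8793 genes, 5175 and 4932 were above 0, with a median of 0.05 in both.

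Among the 12 polymerase and nucleotide supply genes, *pold3*, an accessory subunit of polymerase delta, was higher in embryo-irradiated livers. It had 5.21, 5.16 and 5.33 in embryo 0.1 Gy, 5.21, 5.48 and 5.48 in embryo 1.0 Gy, 5.09, 4.91 and 5.01 in adult 0.1 Gy, 5.05, 4.96 and 4.88 in adult 1.0 Gy, and 5.05, 5.10 and 4.98 in control livers. Every embryo-irradiated array lay above every other array, and the adult-irradiated and control arrays overlapped. *pold3* rose by 0.27 ± 0.09 in the long-term response (adjusted p = 0.043), a call that 12 of 15 fits leaving out 1 array lost with differences of 0.24 to 0.31. It was 0.33 ± 0.07 higher in embryo-irradiated than in adult-irradiated livers (adjusted p = 0.0032). Only leaving out embryo 1.0 Gy replicate 2 lost the latter call, through the F-test (0.31).

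*rrm1*, the large subunit of ribonucleotide reductase that makes deoxynucleotides, had 4.49, 4.49 and 4.54 in embryo 0.1 Gy, 4.75, 4.53 and 4.45 in embryo 1.0 Gy, 4.13, 4.15 and 4.28 in adult 0.1 Gy, 4.46, 4.06 and 4.23 in adult 1.0 Gy, and 4.55, 4.53 and 4.34 in control livers. The embryo-irradiated arrays overlapped the controls and the adult-irradiated arrays were lower but for 1 adult 1.0 Gy array of 4.46. The difference between the irradiation times was 0.32 ± 0.08 (adjusted p = 0.0084), and 12 of 15 fits without 1 array lost it through the F-test, with differences of 0.27 to 0.38. *pole4*, a small subunit of polymerase epsilon, had 6.30, 6.18 and 6.27 in embryo 0.1 Gy, 6.10, 5.82 and 6.09 in embryo 1.0 Gy, 5.95, 5.95 and 5.68 in adult 0.1 Gy, 5.78, 5.70 and 5.97 in adult 1.0 Gy, and 5.95, 5.90 and 5.70 in control livers. The embryo 0.1 Gy arrays were above all others and the other groups overlapped. It was 0.29 ± 0.09 higher in embryo-irradiated than in adult-irradiated livers (adjusted p = 0.016). This call was lost through the F-test in 7 of 15 fits without 1 array (0.24 to 0.33). The other 9 genes of this role, among them *pola1* and *pola2* of the primase complex, *pold1*, and the small reductase subunits *rrm2b* and *rrm2l*, passed in none of the 3 comparisons. The lowest was *pole3*, at -0.57 ± 0.24 in the acute comparison (adjusted p = 0.063).

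Of the 12 genes of the clamp, its loader, flap and nick processing and single-strand binding, 6 (*pcna*, *rfc1*, *rfc5*, *rpa1*, *rpa2* and *rpa3*) were higher in embryo-irradiated than in adult-irradiated livers (50%, beside 14.4% of all genes) and none was lower. The RPA genes were first planned as a role of their own and are joined here with the clamp and loader genes. The roles were drawn up with earlier results of these data known, so this share is a description and not a result about the role. Of the 6, *pcna*, *rpa1* and *rpa3* fell in the acute response (25% of the 12, beside 17.3% of all genes). None of the 12 passed in the long-term response (5 at an unadjusted p under 0.05). There 10 of the 12 differences were above 0 with a median of 0.13, beside 5175 of all 8793 genes with a median of 0.05.

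*pcna*, the clamp, had 7.63, 7.30 and 7.72 in embryo 0.1 Gy, 8.31, 8.67 and 7.58 in embryo 1.0 Gy, 7.43, 7.03 and 6.91 in adult 0.1 Gy, 7.09, 7.18 and 7.32 in adult 1.0 Gy, and 8.01, 8.11 and 8.01 in control livers. The 6 adult-irradiated arrays and the embryo 0.1 Gy arrays were all below the controls, which lay close together. The embryo 0.1 Gy arrays overlapped the adult-irradiated arrays, and the embryo 1.0 Gy arrays spread from below the controls to above them. *pcna* fell by 0.88 in the acute response (SE 0.19; 0.542 times the control level, adjusted p = 0.0020) and was 0.71 ± 0.16 higher in embryo-irradiated than in adult-irradiated livers (1.64-fold, adjusted p = 0.0029). The long-term difference was -0.17 ± 0.19 (95% interval -0.58 to 0.24). Both calls held in every fit that left out 1 array, and the acute call was lost when control replicates 2 and 3 were left out together (-0.85, adjusted p = 0.084).

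*rpa3*, the smallest of the 3 RPA subunits, had 5.03, 5.34 and 5.21 in embryo 0.1 Gy, 5.39, 5.19 and 4.79 in embryo 1.0 Gy, 4.73, 4.46 and 4.80 in adult 0.1 Gy, 4.57, 4.44 and 4.69 in adult 1.0 Gy, and 4.96, 5.09 and 5.16 in control livers. The adult-irradiated arrays were all below the controls, and 1 embryo 1.0 Gy array of 4.79 reached into their range. It fell by 0.45 in the acute response (SE 0.13, adjusted p = 0.012), which was lost without control replicate 3 (-0.41), and was 0.54 ± 0.11 higher in embryo-irradiated than in adult-irradiated livers (adjusted p = 0.0014). *rpa1*, the large subunit, averaged 6.26 ± 0.10 in embryo 0.1 Gy, 6.35 ± 0.20 in embryo 1.0 Gy, 5.89 ± 0.16 in adult 0.1 Gy, 5.79 ± 0.12 in adult 1.0 Gy and 6.21 ± 0.10 in control livers (SD, n = 3, as for the means below). All of its adult-irradiated arrays lay below all others, with an acute fall by 0.37 (SE 0.11, adjusted p = 0.013; -0.31 and not passed without control replicate 3) and a difference of 0.46 ± 0.09 between the irradiation times (adjusted p = 0.0010). *rpa2*, the middle subunit, averaged 5.40 ± 0.18 in embryo 0.1 Gy, 5.43 ± 0.23 in embryo 1.0 Gy, 5.21 ± 0.22 in adult 0.1 Gy, 4.88 ± 0.11 in adult 1.0 Gy and 5.16 ± 0.04 in control livers. It passed between the irradiation times only, at 0.37 ± 0.10 (adjusted p = 0.0094). This call was lost through the F-test without adult 1.0 Gy replicate 1 (0.35) or 3 (0.36).

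*rfc1*, the large subunit of the clamp loader, had 5.21, 4.87 and 5.11 in embryo 0.1 Gy, 4.86, 4.66 and 4.62 in embryo 1.0 Gy, 4.14, 4.47 and 4.13 in adult 0.1 Gy, 4.27, 4.55 and 4.65 in adult 1.0 Gy, and 4.62, 4.48 and 4.59 in control livers. The embryo 0.1 Gy arrays were above all others, and the 1.0 Gy groups met near the control level. It was 0.52 ± 0.10 higher in embryo-irradiated than in adult-irradiated livers (adjusted p = 0.00082), and neither response passed against control (0.32 ± 0.12 long-term, adjusted p = 0.061; -0.20 ± 0.12 acute, adjusted p = 0.16). *rfc5*, a small loader subunit, differed by 0.27 ± 0.08 between the irradiation times (adjusted p = 0.013). In 6 of 15 fits without 1 array the call was lost through the F-test (0.24 to 0.33). The other small subunits, *rfc3* and *rfc4*, differed by -0.15 ± 0.11 and 0.09 ± 0.08.

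The flap, nick and clamp-modifying enzymes did not pass. *fen1*, which cuts the flaps of lagging-strand fragments, had 5.41, 5.03 and 5.02 in embryo 0.1 Gy, 5.41, 5.31 and 4.81 in embryo 1.0 Gy, 5.09, 4.65 and 4.61 in adult 0.1 Gy, 4.53, 4.84 and 4.82 in adult 1.0 Gy, and 5.12, 5.35 and 4.87 in control livers. The groups overlapped, and the difference of 0.41 ± 0.13 between the irradiation times had an adjusted p of 0.027 in the comparison but missed the F-test. The ligase *lig1*, which seals these fragments, likewise stood at 0.26 ± 0.07 (adjusted p = 0.014) without passing the F-test. *rad18*, the ligase that ubiquitinates PCNA, was above all controls on all 12 irradiated arrays, at 0.33 ± 0.10 in both responses (adjusted p = 0.035 and 0.019), and did not pass the F-test. A second *rad18* probe set gave a long-term difference of 0.00 ± 0.11 and an acute difference of 0.27 ± 0.11.

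**Figure D3:**
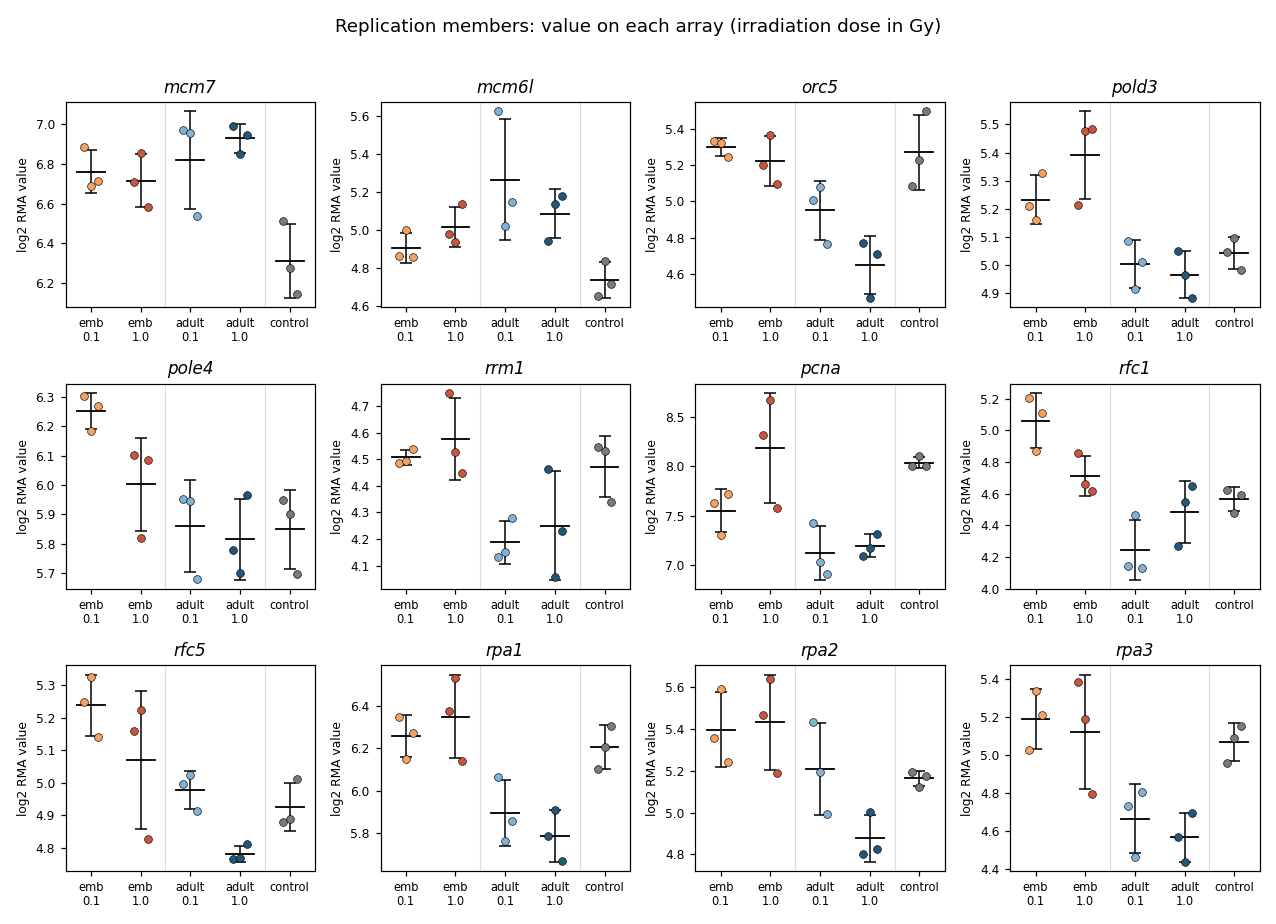
Log2 value (vertical axes, one scale per gene) on each array for 12 replication genes, in embryo 0.1 Gy, embryo 1.0 Gy, adult 0.1 Gy, adult 1.0 Gy and control livers. Bars are the mean and SD of 3 arrays. For *pcna*, *rpa1*, *rpa3* and *orc5* every adult-irradiated array is below every control, and for *mcm7* and *mcm6l* every irradiated array is above.

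Among the 8 nucleotide excision repair genes, *ddb2*, which recognizes ultraviolet lesions in chromatin and is a known p53 target in human cells, showed the largest long-term rise of any member. It had 7.61, 7.95 and 8.13 in embryo 0.1 Gy, 7.86, 7.85 and 7.43 in embryo 1.0 Gy, 7.98, 7.77 and 7.63 in adult 0.1 Gy, 7.43, 7.55 and 7.55 in adult 1.0 Gy, and 7.33, 6.68 and 6.77 in control livers. All 12 irradiated arrays exceeded all controls, control replicate 1 being the closest. *ddb2* rose by 0.88 ± 0.16 in the long-term response (1.84-fold, adjusted p = 0.0017) and by 0.72 ± 0.16 in the acute response (1.65-fold, adjusted p = 0.0022), and the responses differed by 0.16 ± 0.13 (adjusted p = 0.35, 95% interval -0.12 to 0.43). Both calls held in each fit without 1 array. Without control replicates 2 and 3 together, the differences were 0.48 (adjusted p = 0.34) and 0.32 (adjusted p = 0.32) and did not pass.

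*xpc*, another damage sensor, had 4.51, 4.47 and 4.48 in embryo 0.1 Gy, 4.35, 4.45 and 4.53 in embryo 1.0 Gy, 4.58, 4.40 and 4.47 in adult 0.1 Gy, 4.46, 4.66 and 4.51 in adult 1.0 Gy, and 4.48, 4.07 and 4.16 in control livers. Control replicates 2 and 3 lay below all irradiated arrays and control replicate 1 among them, and the gene was not tested. Its partner *rad23b* averaged 7.52 ± 0.21 in embryo 0.1 Gy, 7.26 ± 0.13 in embryo 1.0 Gy, 7.04 ± 0.24 in adult 0.1 Gy, 7.35 ± 0.05 in adult 1.0 Gy and 7.51 ± 0.02 in control livers. It fell by 0.32 in the acute response (SE 0.12, adjusted p = 0.034). This call was lost in 8 of 15 fits without 1 array (-0.37 to -0.25), and the gene's second probe set gave -0.11 ± 0.13 (adjusted p = 0.48). In all 9 members had a second probe set. Those of *rad18*, *rad23b* and *rfc4* were tested, and none of these passed in the 3 comparisons. The others were under the range minimum and had no test. *xpa*, which verifies the lesion before incision, averaged 4.82 ± 0.27 in embryo 0.1 Gy, 4.56 ± 0.04 in embryo 1.0 Gy, 4.34 ± 0.06 in adult 0.1 Gy, 4.35 ± 0.06 in adult 1.0 Gy and 4.50 ± 0.05 in control livers. Its embryo-irradiated arrays all exceeded its adult-irradiated arrays (7.5% of members did not overlap in this comparison, 5 higher and 1 lower, against 12.3% of all genes, 8.46% higher and 3.83% lower), a difference of 0.35 ± 0.08 (adjusted p = 0.0051). The helicases of TFIIH, *ercc2* and *ercc3*, the DDB2 partner *ddb1*, and *rad23ab* passed in none of the 3 comparisons.

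Of the 8 genes of mismatch, base excision and single-strand break repair, *apex1* fell in both responses. It encodes the endonuclease that cuts the backbone where a damaged base has been removed. The values were 5.86, 5.46 and 5.37 in embryo 0.1 Gy, 5.68, 5.58 and 5.15 in embryo 1.0 Gy, 5.19, 4.92 and 4.82 in adult 0.1 Gy, 4.62, 4.94 and 5.21 in adult 1.0 Gy, and 5.73, 6.17 and 6.32 in control livers. The adult-irradiated arrays were all below the controls, and in embryo-irradiated livers only the array of 5.86 overlapped with the lowest control. *apex1* fell by 1.13 in the acute response (SE 0.18; 0.458 times the control level, adjusted p = 0.00017) and by 0.56 in the long-term response (SE 0.18, adjusted p = 0.034), and was 0.57 ± 0.14 higher in embryo-irradiated than in adult-irradiated livers (adjusted p = 0.0068). The long-term call was lost without control replicate 2 (-0.51), control replicate 3 (-0.44), embryo 0.1 Gy replicate 2 (-0.54) or 3 (-0.51), or embryo 1.0 Gy replicate 3 (-0.48), and the acute call was not lost without any single array.

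*parp3*, which adds ADP-ribose near DNA breaks, had 4.46, 4.39 and 4.62 in embryo 0.1 Gy, 4.48, 4.49 and 4.10 in embryo 1.0 Gy, 4.15, 3.94 and 3.79 in adult 0.1 Gy, 3.90, 3.90 and 4.01 in adult 1.0 Gy, and 4.36, 4.45 and 4.22 in control livers. The adult-irradiated arrays were all below the controls and overlapped the embryo-irradiated arrays through 1 embryo 1.0 Gy array. It fell by 0.39 in the acute response (SE 0.11, adjusted p = 0.010; -0.34 and not passed without control replicate 2), and was 0.47 ± 0.09 higher in embryo-irradiated than in adult-irradiated livers (adjusted p = 0.0012). *parp2*, which acts at single-strand breaks, averaged 5.33 ± 0.10 in embryo 0.1 Gy, 5.08 ± 0.09 in embryo 1.0 Gy, 4.80 ± 0.08 in adult 0.1 Gy, 4.93 ± 0.11 in adult 1.0 Gy and 5.07 ± 0.03 in control livers. It passed between the irradiation times only (0.34 ± 0.07, adjusted p = 0.0016).

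*msh6*, which recognizes base mismatches, had 5.09, 5.29 and 5.06 in embryo 0.1 Gy, 5.25, 5.50 and 5.09 in embryo 1.0 Gy, 5.59, 5.11 and 5.05 in adult 0.1 Gy, 5.07, 5.28 and 5.02 in adult 1.0 Gy, and 5.02, 4.76 and 4.98 in control livers. The embryo-irradiated arrays were all above the controls and the adult-irradiated arrays met the highest control. The differences of 0.29 ± 0.13 and 0.26 ± 0.13 did not pass (adjusted p = 0.13 and 0.11). *apex2*, *exo1*, *unga* and *xrcc1* did not pass either, with differences between -0.17 and 0.28.

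No gene of double-strand break and crosslink repair passed against control or between the irradiation times, among 15 members of which 6 were tested (2, 4 and 5 of the 15 had an unadjusted p under 0.05 in the long-term, acute and irradiation time comparisons). *xrcc6*, the smaller of the Ku proteins that bind broken ends, had 8.14, 7.81 and 8.04 in embryo 0.1 Gy, 7.99, 8.05 and 7.91 in embryo 1.0 Gy, 7.85, 7.77 and 7.54 in adult 0.1 Gy, 7.74, 7.61 and 7.89 in adult 1.0 Gy, and 7.99, 8.10 and 8.04 in control livers. The adult-irradiated arrays were all below the controls, at -0.31 ± 0.10 (adjusted p = 0.021), but the F-test was missed. Its partner *xrcc5* had 5.88, 6.11 and 5.90 in embryo 0.1 Gy, 5.81, 6.03 and 6.03 in embryo 1.0 Gy, 5.99, 5.96 and 5.99 in adult 0.1 Gy, 5.98, 6.01 and 5.81 in adult 1.0 Gy, and 5.91, 5.62 and 5.79 in control livers. The groups overlapped through control replicate 1, with an acute difference of 0.19 ± 0.09, and the gene was not tested. *rad54b*, a DNA translocase of homologous recombination, was above all controls on all adult-irradiated arrays (0.33 ± 0.10, adjusted p = 0.017) and also missed the F-test. The remaining genes, among them *mre11a* and *nbn* of the end-processing complex, *brca2*, and the paralogues *rad51b*, *rad51c* and *rad51d*, had differences of -0.19 to 0.29 against control.

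The 4 checkpoint genes did not pass either, with 0, 1 and 2 at an unadjusted p under 0.05 in these comparisons. *chek1*, the kinase that signals stalled forks, had 3.66, 3.52 and 3.47 in embryo 0.1 Gy, 3.63, 3.98 and 3.69 in embryo 1.0 Gy, 3.67, 3.63 and 3.73 in adult 0.1 Gy, 3.69, 3.70 and 3.63 in adult 1.0 Gy, and 3.63, 3.73 and 3.57 in control livers. *chek2*, the kinase that signals broken ends, had 5.91, 6.18 and 5.87 in embryo 0.1 Gy, 5.88, 5.79 and 6.0 in embryo 1.0 Gy, 6.15, 5.91 and 5.84 in adult 0.1 Gy, 6.01, 6.14 and 5.99 in adult 1.0 Gy, and 5.99, 5.72 and 5.61 in control livers. The groups overlapped in both kinases, which were not tested. The acute difference was 0.03 ± 0.08 for *chek1* and 0.24 ± 0.10 for *chek2*. *rad1* and *rad9a* of the checkpoint clamp differed by 0.30 ± 0.10 and 0.23 ± 0.11 between the irradiation times (adjusted p = 0.031, with the F-test missed, and 0.11).

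The largest differences between the irradiation times among the 80 genes belonged to a pair that only shares letters with repair genes. *parp12b*, whose mammalian relative is an interferon-induced antiviral protein, had 6.86, 6.20 and 6.61 in embryo 0.1 Gy, 6.54, 6.34 and 6.28 in embryo 1.0 Gy, 5.04, 5.23 and 5.28 in adult 0.1 Gy, 5.52, 5.35 and 5.28 in adult 1.0 Gy, and 6.13, 5.88 and 5.84 in control livers. The embryo-irradiated arrays were all above the controls and the adult-irradiated arrays all below. It rose by 0.52 ± 0.13 in the long-term response (adjusted p = 0.013), fell by 0.67 in the acute response (SE 0.13, adjusted p = 0.0011), and was 1.19 ± 0.11 higher in embryo-irradiated than in adult-irradiated livers (2.28-fold, adjusted p = 4.8e-06). The long-term call was lost without control replicate 2 (0.49) or 3 (0.47).

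*rad54l2*, a chromatin remodeller known in mammals as a partner of the androgen receptor, had 4.98, 5.05 and 4.87 in embryo 0.1 Gy, 5.52, 5.12 and 5.45 in embryo 1.0 Gy, 6.21, 6.35 and 6.95 in adult 0.1 Gy, 6.72, 6.53 and 6.24 in adult 1.0 Gy, and 5.38, 5.60 and 5.19 in control livers. The adult-irradiated arrays were above all others. *rad54l2* rose by 1.11 ± 0.16 in the acute response (2.15-fold, adjusted p = 0.00011) and was lower in embryo-irradiated than in adult-irradiated livers (-1.33 ± 0.13, adjusted p = 8.3e-06). Both calls held in every alternative that gave a value. *parp4*, *parp16*, *ercc6l* and the cohesin genes *rad21a* and *rad21l1* were not tested and differed by -0.27 to 0.17.

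**Figure D4:**
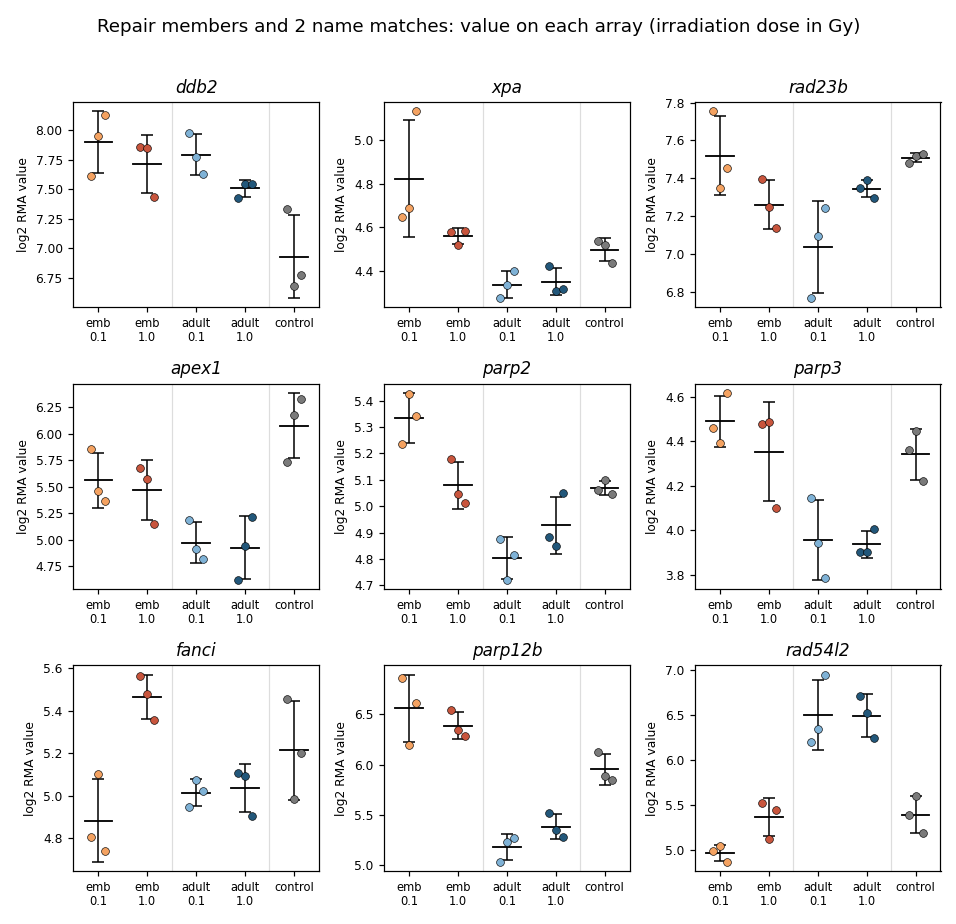
Log2 value (vertical axes, one scale per gene) on each array for 7 repair genes and the name matches *parp12b* and *rad54l2*, in embryo 0.1 Gy, embryo 1.0 Gy, adult 0.1 Gy, adult 1.0 Gy and control livers. Bars are the mean and SD of 3 arrays. All irradiated arrays exceed the controls for *ddb2*, all adult-irradiated arrays lie below them for *apex1* and *parp3*, and the embryo doses do not overlap for *fanci*.

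Few members passed between the doses. Over both responses, 0 of 80 members passed between 0.1 and 1.0 Gy by limma (0.296% of all genes passed), with 4 at an unadjusted p under 0.05, and 0 passed the interaction of time and dose (0.5% of all genes), with 7 at an unadjusted p under 0.05. Between the doses in adult-irradiated livers 0 passed (0.0682% of all genes), with 3 at an unadjusted p under 0.05. Between the doses in embryo-irradiated livers 12 had an unadjusted p under 0.05. The share of all genes at this level was not counted in any of these comparisons. Between these embryo doses 1 member passed (0.796% of all genes, 0.512% in its direction, lower at 0.1 Gy). This was *fanci*, a component of the crosslink repair complex, with 4.81, 5.10 and 4.74 in embryo 0.1 Gy and 5.56, 5.48 and 5.36 in embryo 1.0 Gy livers, beside 4.95, 5.08 and 5.02 in adult 0.1 Gy, 5.11, 5.10 and 4.91 in adult 1.0 Gy, and 5.45, 4.98 and 5.20 in control livers. The embryo 0.1 Gy arrays were all below the embryo 1.0 Gy arrays, and the controls overlapped both. *fanci* was lower at 0.1 Gy than at 1.0 Gy by a log2 difference of -0.58 ± 0.13 (adjusted p = 0.049), and 13 of 15 fits without 1 array lost the call (-0.69 to -0.51).

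Differences between doses that did not pass had wide intervals. *pcna* differed by -0.64 between embryo 0.1 Gy and embryo 1.0 Gy livers (95% interval -1.11 to -0.16, adjusted p = 0.20), and by -0.07 between adult 0.1 Gy and adult 1.0 Gy livers (-0.55 to 0.40). *rfc3* differed by 0.49 between the embryo doses (0.16 to 0.83, adjusted p = 0.16), and *ddb2* by 0.18 (-0.21 to 0.57) between the embryo doses and 0.29 (-0.11 to 0.68) between the adult doses.

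One array stood out in these genes. Embryo 1.0 Gy replicate 2 held the highest value of 16 of the 80 members (20%), where it held that of 7.19% of all genes, and of 9 of the 38 replication genes. *pcna* at 8.67 and *mcm2* at 6.45 were among them. Without it *pcna* kept its calls, and *pold3*, *rrm1*, *mcm6l*, *rad23b* and *fanci* lost calls, with the differences given above. Control replicates 2 and 3 each held the lowest value of 12 members (15%), where they held that of 11.9% and 13.5% of all genes. Without control replicate 2, or without control replicate 3, 1 member (*ddb2*) passed in the long-term comparison (1.25% of 80, against 6.95% and 6.72% of all genes). In the acute comparison 8 and 7 then passed (10% and 8.75%, against 20.2% and 19.8% of all genes). With both of these controls left out, 1 control array remained. There, and without the 4 arrays whose source name swaps the groups, calls were lost among all genes as well as among the members. Without the 4 arrays whose source name swaps the groups, every long-term call of a member was lost. In the acute comparison only *rad54l2* and *parp12b* kept theirs, and between the irradiation times fewer members passed. The share of all genes that passed also fell in each of the 3 comparisons. The long-term comparison then rests on 1 control array, the irradiation time comparison on 1 adult 0.1 Gy array beside the other groups, and the acute comparison on both.

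Other replication and repair genes outside the rule were read from lists chosen with earlier results of these data known. Of 28 further replication factors on the array, 3 passed in the long-term response (2 higher, 1 lower), 8 in the acute response (3 higher, 5 lower) and 6 between the irradiation times (5 higher, 1 lower). These were 10.7%, 28.6% and 21.4% of the list, near the 13.7%, 26.5% and 22.5% of all genes, and the genes named next are given as values. *dut*, the enzyme that keeps uracil out of DNA, fell by 0.63 in the acute response (SE 0.12, adjusted p = 0.00070) and was 0.93 ± 0.10 higher in embryo-irradiated than in adult-irradiated livers (adjusted p = 1.1e-05). *tk1*, thymidine kinase, and *wdhd1*, which links helicase and polymerase, rose in both responses. The long-term rise was 0.32 ± 0.09 for *tk1* and 0.35 ± 0.09 for *wdhd1* (adjusted p = 0.026 and 0.011), and the acute rise was 0.43 ± 0.09 and 0.34 ± 0.09 (adjusted p = 0.0020 and 0.0056). Of 37 proliferation genes, 0 passed in the long-term response by limma (5 at an unadjusted p under 0.05), 6 in the acute response (3 higher, 3 lower), and 6 between the irradiation times (4 higher, 2 lower). The last 2 counts were each 16.2% of the list, beside 26.5% and 22.5% of all genes. Called or not, 32 of the 37 acute differences were above 0 (median 0.16). Between the irradiation times 9 were above and 28 below 0 (median -0.10), and the median of the 80 members was 0.07.

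Of 59 repair and damage-response genes outside the rule, 8 passed in the long-term response (4 higher, 4 lower), 19 in the acute response (7 higher, 12 lower) and 21 between the irradiation times (14 higher, 7 lower). These were 13.6%, 32.2% and 35.6% of the list, beside 13.7%, 26.5% and 22.5% of all genes. *bbc3*, a p53 target that promotes cell death, rose by 2.38 ± 0.24 in the acute response (adjusted p = 6.4e-06) and had a long-term difference of 0.42 ± 0.24 (adjusted p = 0.22). *mdm2*, the ligase that restrains p53, rose after both exposures, by 0.34 ± 0.10 in embryo-irradiated (adjusted p = 0.024) and 0.62 ± 0.10 in adult-irradiated livers (adjusted p = 0.00021). The study reports p53 pathway genes, among them *gadd45bb*, *baxa*, *bida* and *mdm2*, as induced in the acute response. It assigns no gene of that pathway primarily to the long-term response. Other genes whose mammalian relatives are p53 targets (*ptena*, *ptenb*, *sesn* and *perp*) it reports as lower in the acute response. The p53 targets on this list include genes that the study had picked on these arrays, and their directions are no independent evidence.

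Markers of other cells in the tissue also moved between groups. All 9 exocrine pancreas markers were lower in the adult-irradiated than in the control livers (median -0.67) and higher in embryo-irradiated than in adult-irradiated livers (median 0.90), the directions seen for the clamp and RPA genes, and 0 of them passed by limma (0 and 1 at an unadjusted p under 0.05). The log2 of their summed intensities ranged from 14.1 to 16.3 in embryo-irradiated, 13.2 to 16.5 in adult-irradiated and 14.3 to 15.8 in control livers. Summed levels below are the same measure. All 10 erythrocyte markers were above control in both responses (medians 0.20 and 0.52). All 11 leukocyte markers were above it after embryo irradiation (median 0.16), and 9 after adult irradiation (median 0.23, 2 below). These were the directions of *mcm7* and *ddb2* against control. By limma, 3 leukocyte markers were higher after adult irradiation (27.3%, beside 9.19% of all genes). After embryo irradiation 1 leukocyte marker was higher (9.09%, beside 4.66% of all genes). Of the erythrocyte markers, 1 passed as higher after adult irradiation (10%). After embryo irradiation 0 erythrocyte markers passed (0 at an unadjusted p under 0.05). Summed levels were 12.2 to 13.3 in embryo-irradiated, 12.7 to 13.4 in adult-irradiated and 12.0 to 12.8 in control livers for erythrocytes, and 10.7 to 11.6 in embryo-irradiated, 10.7 to 11.1 in adult-irradiated and 9.95 to 10.7 in control livers for leukocytes. Muscle and germ cell markers also ran in the directions of *mcm7* and *ddb2* against control. Of 9 muscle markers, 8 were above control in the long-term response (median 0.93) and 9 in the acute response (median 0.88), and 0 passed by limma (0 and 1 at an unadjusted p under 0.05). Their summed level was 8.42 to 10.6 in embryo-irradiated, 8.36 to 12.0 in adult-irradiated and 8.15 to 8.62 in control livers, the highest on adult 1.0 Gy replicate 3. Of 12 germ cell markers, 11 and 12 were above control in these responses (medians 0.14 and 0.26), and 0 passed by limma (1 and 6 at an unadjusted p under 0.05). Their summed level was 8.65 to 9.11 in embryo-irradiated, 8.75 to 9.13 in adult-irradiated and 8.62 to 8.79 in control livers. Between the irradiation times 9 of the 10 erythrocyte and 11 of the 12 germ cell markers were below 0 (medians -0.18 and -0.15). Leukocyte markers were there 7 above and 4 below 0, and muscle markers 5 above and 4 below. In that comparison 1 erythrocyte and 1 leukocyte marker passed as lower (10% and 9.09%, beside 8.11% of all genes). Of 7 intestine markers, 3 were above and 4 below control in each response (medians -0.15 and -0.44). Between the irradiation times 1 of these passed as higher (14.3%, beside 14.4% of all genes). Of 6 endothelial and stellate markers, 3 and 5 were above control, and 0 passed by limma (1 and 2 at an unadjusted p under 0.05). The part of these cells in the member differences was not tested, and in bulk tissue fewer cells of a type and less RNA per cell cannot be told apart.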

How the data were processed

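Liver RNA of 5 groups was measured on 15 arrays. The deposited values are log2 probe set levels that the authors made by Robust Multiarray Average with quantile normalization, after a quality check with affyPLM; tool versions are not given in the sources used here. These values entered the fit without a further transformation. Of 15617 probe sets in the file, 115 manufacturer controls were left out. Of the remaining 15502, 10795 had 1 symbol in the platform annotation updated through the gene table, 135 had several and 4572 had none. Groups follow title, treatment and timing.

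The means of the 5 groups were fitted with limma 3.58.1 in R 4.3.3, with moderated variances, on the 8634 probe sets whose interquartile range over all arrays reached 0.2. Contrasts were the mean of both embryo-irradiated groups minus control, the mean of both adult-irradiated groups minus control, their difference, 0.1 minus 1.0 Gy over and within the responses, and the interaction. Adjusted p values (Benjamini-Hochberg) are over all tested probe sets. Errors of differences are standard errors of this fit, errors of group means are SDs. The fit was tested on simulated data. The pools of a group were raised together, so p values measure only the spread between pools of 1 batch, and 3 arrays a group limit the precision.

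The members, their roles and the gene lists were chosen with earlier results of these data known. Named with differences were the members that passed in any comparison; the value on every array is given for the 6 largest increases and decreases per comparison, for each member that passed for dose, and for a set of textbook genes, some of which are not reported here. *lig1*, *rad18*, *rad54b*, *rad1* and the genes named with the cell cycle or damage lists were added after their values were seen. Also outside this rule are the differences given for *pole3*, *rfc3*, *rfc4*, *rad9a*, *ercc2* and *ercc3*, and the values of *pole4* on every array. Alternatives changed the filters, scaling, weights, arrays, F-test, variance trend, probe set and replicate block.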

Additional observations from a re-analysis of the deposited data

Results flagged for a closer look

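For 13 of the 16 members that passed between the irradiation times, the embryo-irradiated and the adult-irradiated means lay on opposite sides of the control mean. Choosing members by this comparison favours opposite signs, and their share among all genes that passed was not counted. Several of the 13 lay within their SE of control on one side. In the acute response these were *pole4* (-0.01 ± 0.10), *rfc5* (-0.05 ± 0.10) and *pold3* (-0.06 ± 0.09), among others. In the long-term response they were *rrm1* (0.07 ± 0.10), *parp3* (0.08 ± 0.11) and *rpa3* (0.09 ± 0.13), among others. The test of the difference is the irradiation time comparison itself, and the log2 difference, embryo-irradiated minus adult-irradiated, follows for each. Among replication genes it was 0.52 for *rfc1*, 0.27 for *rfc5*, 0.46 for *rpa1*, 0.37 for *rpa2*, 0.54 for *rpa3*, 0.33 for *pold3*, 0.29 for *pole4* and 0.32 for *rrm1*. Among repair genes it was 0.34 for *parp2*, 0.47 for *parp3* and 0.35 for *xpa*. For the name matches it was 1.19 for *parp12b* and -1.33 for *rad54l2*. Against control, *parp12b* alone of these 13 passed in both responses. The other 3 members that passed, *apex1*, *orc5* and *pcna*, were on the same side of the control in both responses. In groups of 3 arrays a single array that stands apart is not tested.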

How the results depend on the processing

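No call of a single member changed sign under any alternative that gave a value. The number of members that passed was 5 in the long-term, 12 in the acute and 16 in the irradiation time comparison. With an interquartile range of at least 0.5 it was 2, 4 and 4, since fewer probe sets were tested. These were 2.5%, 5% and 5% of 80, against 4.92%, 11.1% and 10.9% of all genes. With limma's array weights it was 18 and 24 in the long-term and acute comparisons. It fell in the 3 comparisons, with fewer arrays, after leaving out the 4 whose source name swaps the groups, and so did the share of all genes. Without control replicates 2 and 3 together, which leaves 1 control array, the members' counts and the share of all genes fell as well. A filter on a mean log2 value of at least 5 left 10 in the irradiation time comparison (12.5%, against 20% of all genes). A fit on only the compared groups left 1 in the long-term comparison (1.25%, against 8.73% of all genes). Leaving out each array in turn gave 1 to 5 in the long-term, 7 to 12 in the acute and 13 to 17 in the irradiation time comparison. In each of these fits the members' share was below that of all genes in these comparisons, with untested genes counted as not passed. Among tested genes only, it was below in the long-term and acute comparisons. Between the irradiation times it was then above in some fits and below in others. It was 39.5% against 35% without embryo 1.0 Gy replicate 3, and 30.2% against 31.3% without adult 1.0 Gy replicate 1. The single member that passed between the embryo doses, *fanci*, was lost (0 passed) with no filter, the stricter range, array medians subtracted, a repeated quantile normalization, the 4 arrays left out or only the compared groups, array weights gave 3, and leaving out each array gave 0 to 1. Where not stated, the cause was not tested.

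With array medians subtracted, 3 members were higher and 10 lower than control after adult irradiation, where 4 were higher and 8 lower before. The dose, interaction and adult dose counts stayed at 0 in every alternative.

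The replicate numbers do not pair the arrays: over 30 pairs of same-numbered arrays the deviations from the group means correlated between -0.291 and 0.179, and 4 pairs exceeded 0.1. With the replicate number as a block, 3, 10 and 14 members passed in the 3 comparisons and 0 between the embryo doses.

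Low signal and 3 arrays a group limit these results. The smallest difference that passed among the members was 0.27 (log2), and the 37 members under the range minimum have no test.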

Other observations

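The genes below were singled out from the lists of further replication and repair genes after their values were seen. They are given as values only and stand for no group, since other genes of the same lists did not pass. Of the TFIIH subunits read outside the rule, 3 were lower in adult-irradiated than in control livers, *gtf2h2* by a log2 difference of -0.65, *gtf2h4* of -0.99 and *gtf2h5* of -1.32 (adjusted p = 0.0016, 6.3e-05 and 1.0e-05), with long-term differences of -0.28, -0.19 and -0.38 that did not pass. *gtf2h1* stood at -0.42 without passing the F-test, and *cdk7*, the kinase of TFIIH, at 0.02 without being tested. Their helicase partners *ercc2* and *ercc3*, which belong to the members, stood at 0.30 (not tested) and -0.29 (F-test missed).

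*usp1*, which removes ubiquitin from PCNA, averaged 5.55 ± 0.06 in embryo 0.1 Gy, 5.43 ± 0.08 in embryo 1.0 Gy, 5.03 ± 0.13 in adult 0.1 Gy, 5.19 ± 0.11 in adult 1.0 Gy and 6.33 ± 0.12 in control livers (SD, n = 3), with a long-term difference of -0.84 and an acute difference of -1.23 (adjusted p = 7.0e-05 and 6.2e-07). The ubiquitin-conjugating enzymes *ube2a*, *ube2na*, *ube2nb* and *ube2v2* fell in the acute response, with differences of -0.75, -0.92, -1.38 and -0.40 (adjusted p = 0.00012, 2.7e-05, 1.5e-05 and 0.0056), and *ube2a* and *ube2na* also in the long-term response, with -0.46 and -0.57 (adjusted p = 0.0094 and 0.0031).

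*rnaseh2b* and *rnaseh2c*, subunits of RNase H2, which removes ribonucleotides from DNA, fell in the acute response, with differences of -0.68 and -0.32 (adjusted p = 0.0047 and 0.019) and were 0.95 and 0.46 higher in embryo-irradiated than in adult-irradiated livers (adjusted p = 0.00013 and 0.00077), while *rnaseh2a*, the catalytic subunit, was not tested (-0.14 in the acute response).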
